A study of Mus musculus with 6 samples.

Results

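The genes described here are the alpha and beta tubulins of 4T1 cells, a mouse mammary carcinoma line used as a model of triple-negative breast cancer. The members are the 10 rows of the deposited count table whose symbol is Tuba1a, Tuba1b, Tuba1c, Tuba4a, Tubb2a, Tubb2b, Tubb3, Tubb4b, Tubb5 or Tubb6, out of 22116 named genes. They were chosen because their counts differed between P3FI-90 and DMSO in these same libraries, so that this difference is given as a description without a test. The cells were grown in DMEM with fetal bovine serum and received either DMSO, the vehicle, or 10 µM P3FI-90, an inhibitor of the histone H3 lysine demethylase KDM3B, for 24 h. Each group had 3 RNA-seq libraries, from 1 cell line, at 1 dose and 1 time point. The labels do not say whether the libraries came from separate cultures, so that the spread between them may be technical.

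Alpha and beta tubulin form the heterodimer from which microtubules are built, the hollow fibers that carry vesicles, shape the cell and separate the chromosomes in mitosis. Each is encoded by several genes, called isotypes, whose proteins differ mostly in their acidic tails. Cells also adjust tubulin mRNA to the pool of unassembled dimers. In this autoregulation the factor TTC5 recognizes the first residues of a nascent alpha or beta tubulin on the ribosome, and SCAPER and the CCR4-NOT deadenylase then act on the mRNA being translated. Gamma, delta and epsilon tubulin do not enter the heterodimer.

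The beginnings of the coding sequences are shown because autoregulation reads this part of the nascent chain, and because they separate the alpha and beta isotypes from the other tubulins. They are the first 30 bases from the start codon of the principal transcript in GENCODE M21, 5′ to 3′, with the first 12 bases in capitals.
Tuba1a: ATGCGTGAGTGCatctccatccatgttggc
Tuba1b: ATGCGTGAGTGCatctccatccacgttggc
Tuba1c: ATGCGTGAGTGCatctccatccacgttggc
Tuba4a: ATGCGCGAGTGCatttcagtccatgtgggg
Tubb2a: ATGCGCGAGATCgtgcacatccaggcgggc
Tubb2b: ATGCGAGAGATCgtgcacattcaggcgggc
Tubb3: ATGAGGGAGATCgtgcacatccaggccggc
Tubb4b: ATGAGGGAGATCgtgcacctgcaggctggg
Tubb5: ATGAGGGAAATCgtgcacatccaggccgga
Tubg1: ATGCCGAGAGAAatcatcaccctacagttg
Tubg2: ATGCCCCGGGAGatcatcaccctgcagctg
Tubd1: ATGTCGATAGTGacagtacagctggggcag
Tube1: ATGACCCAGTCGgtggtcgtacaggtcgga
Among the alpha and beta members the start codon was followed by CGN or AGG and then by GAG or GAA. All 10 members had such a start, counting the codons CGN, AGA and AGG in the second place and GAA and GAG in the third. The gamma, delta and epsilon tubulin genes did not.

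Counts on named genes summed to between 31327094 and 37395732 per library. They were normalized by TMM in edgeR, which scales each library to an effective size, and a normalized count is the count at the mean effective size. Of the 12288 genes that passed edgeR's filter on low counts, 9749 (79.3%) passed an adjusted p of 0.05 in the quasi-likelihood test of edgeR. After P3FI-90, 4908 were higher (39.9%) and 4841 lower (39.4%). Differences in log2 units are the fitted log2 fold changes of P3FI-90 over DMSO. Scaling by total counts alone gave 6179 higher and 3641 lower genes and moved the median log2 fold change of all tested genes from 0.01 to 0.23. Kdm3b, which encodes the target of the inhibitor, had 2851 ± 67.4 normalized counts in DMSO (SD, n = 3), with a log2 fold change of 0.13 (SE 0.043). The epithelial markers Krt8, Krt18, Krt19, Krt7, Krt14, Epcam, Cdh1 and Cldn4 were all detected, and all 8 fell after P3FI-90, with a median log2 fold change of −1.18. Their summed normalized counts were 160161 to 169185 in the DMSO libraries and 68247 to 71449 in the P3FI-90 libraries. The neuronal list of 7 genes summed to at most 6.02 normalized counts in DMSO and 25.5 to 39.3 after P3FI-90, with Snap25 and Nefl at 0 in every library. The endothelial list of 5 genes summed to at most 13.3 and to 21.6 to 33.7, with Vwf at 0. The leukocyte list of 7 genes spanned 396 to 496 and 405 to 512, with Adgre1 at 0. The fibroblast list of 6 genes spanned 1411 to 1479 and 1001 to 1096, with Lum at 0. Pdgfra held most of the fibroblast counts, at 1355 ± 17.6 in DMSO and 958 ± 56.5 after P3FI-90 (SD, n = 3). Cd68 held most of the leukocyte counts, at 382 ± 45.2 and 330 ± 55.2. Csf1r, the only leukocyte gene called, rose from 41.5 ± 18.6 to 121 ± 13.2, by 1.56 in log2 units (SE 0.29). The neuronal counts after P3FI-90 were mostly of Elavl3, at 0.803 ± 1.39 and 25.6 ± 2.81. These 3 sums thus describe mainly single genes. Whether these lists have a part in the tubulin values was not tested.

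Tubulin mRNA was far lower in the P3FI-90 libraries. The 10 members together had 288198, 285647 and 289673 normalized counts in the DMSO libraries and 52137, 57815 and 56151 after P3FI-90. Their mean was thus 5.20-fold lower, and the groups did not overlap. Tubulin mRNA made up 0.762% ± 0.0051 of the counts on named genes in DMSO and 0.170% ± 0.0090 after P3FI-90 (SD, n = 3). The alpha members summed to 131828 ± 2413 and 25427 ± 1883 normalized counts, 5.18-fold lower, and the beta members to 156012 ± 3516 and 29940 ± 1204, 5.21-fold lower. Of the 10 members, 9 were lower at an adjusted p under 0.05 in the edgeR fit, where 39.4% of all tested genes were lower, and 1 was not called. The same 9 had every P3FI-90 library below every DMSO library, as did 40.2% of all tested genes, while 41% had every P3FI-90 library above and 81.2% did not overlap in either direction. Since the members were picked on this contrast, nothing is read from these counts. In bulk RNA, less tubulin mRNA per cell and fewer cells with much of it cannot be told apart.

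**Figure D1:**
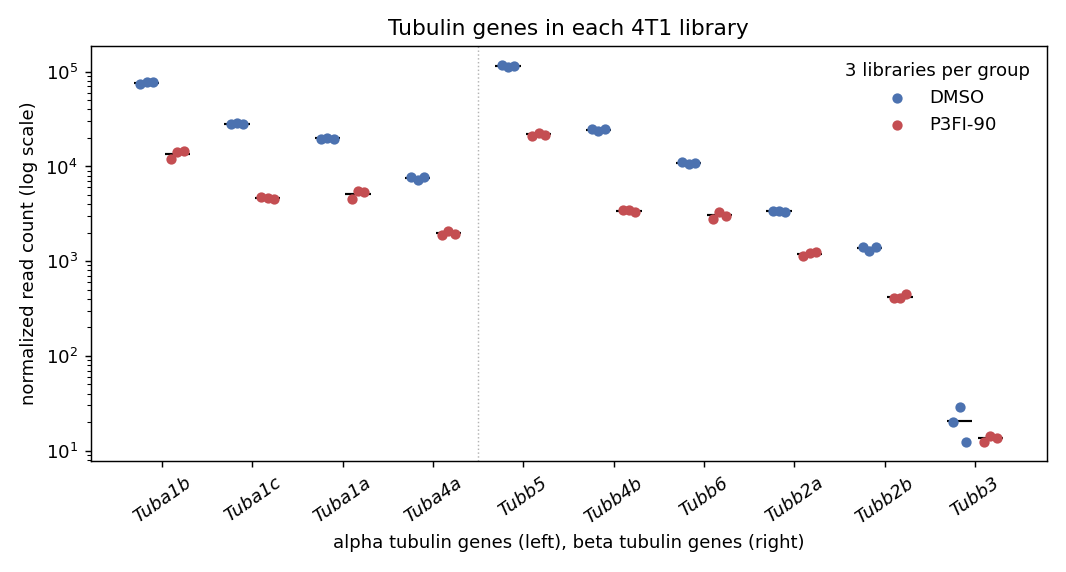
Normalized read count (log scale) of each alpha and beta tubulin gene in the 3 DMSO and 3 P3FI-90 libraries, with group means as horizontal lines, ordered by level per transcript length within alpha and beta. The P3FI-90 libraries lie below the DMSO libraries for 9 genes, and the groups overlap for Tubb3.

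Among the alpha tubulins, Tuba1b (ENSMUSG00000023004), a widely expressed isotype, was the most abundant. It had 73751, 77457 and 77406 normalized counts in the DMSO libraries and 12126, 14270 and 14541 after P3FI-90, a difference of −2.48 in log2 units (SE 0.055), or 5.58-fold lower. Tuba1c (ENSMUSG00000043091), its close paralog, had 27927, 28794 and 28241 normalized counts in DMSO and 4704, 4632 and 4547 after P3FI-90, a difference of −2.61 in log2 units (SE 0.032). The libraries of a group lay close together for Tuba1c, and its log2 difference was the largest among the 4 alpha members.

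Tuba1a (ENSMUSG00000072235), the isotype known for its high level in developing neurons, had 19701, 19953 and 19641 normalized counts in DMSO. After P3FI-90 it had 4519, 5575 and 5417, a difference of −1.93 in log2 units (SE 0.060). Tuba4a (ENSMUSG00000026202), the isotype whose coding sequence ends without the terminal tyrosine codon of Tuba1a, Tuba1b and Tuba1c, had 7675, 7235 and 7703 normalized counts in DMSO and 1904, 2088 and 1959 after P3FI-90. Its log2 fold change was also −1.93 (SE 0.044). For both genes the groups did not overlap.

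Sequence shared between the alpha genes limits how far they can be told apart. Of the windows of 50 bases in the principal transcript, 72.9% for Tuba1a, 73.8% for Tuba1b and 61.0% for Tuba1c also occur in another gene, mostly in one of the other two, against 1.11% for Tuba4a. The exons of Tuba1a and Tuba1b also overlap those of Gm49450, a gene model (ENSMUSG00000116358) that reaches from Tuba1a into Tuba1b on the same strand in GENCODE M21 and has its own row in the table. The exons of Tuba1b further overlap those of an antisense gene, Gm41396. Gm49450 had 22649, 15229 and 20198 counts in the DMSO libraries and 3444, 0 and 0 after P3FI-90. The first P3FI-90 library, the one with counts on Gm49450, was the lowest of its group for 8 of the 10 members, of which only Tuba1a and Tuba1b overlap Gm49450.

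Counts on the 3 rows were therefore added, a step chosen after these values had been seen. Tuba1a and Tuba1b together had 16645, 19844 and 19959 normalized counts after P3FI-90, and with Gm49450 they had 19868, 19844 and 19959. The SD of the P3FI-90 group went from 1881 to 60.3 normalized counts. In DMSO the sum with Gm49450 was 116372, 115751 and 117661, and its SD went from 2188 to 974. With Gm49450 included, the sum of Tuba1a and Tuba1b was 5.86-fold lower after P3FI-90 instead of 5.10-fold, and the sum of the alpha members 5.75-fold instead of 5.18-fold. Gm49450 was lower in the edgeR fit but not called by DESeq2 (adjusted p = 0.233). How the authors' counting split reads among these rows was not tested.

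**Figure D2:**
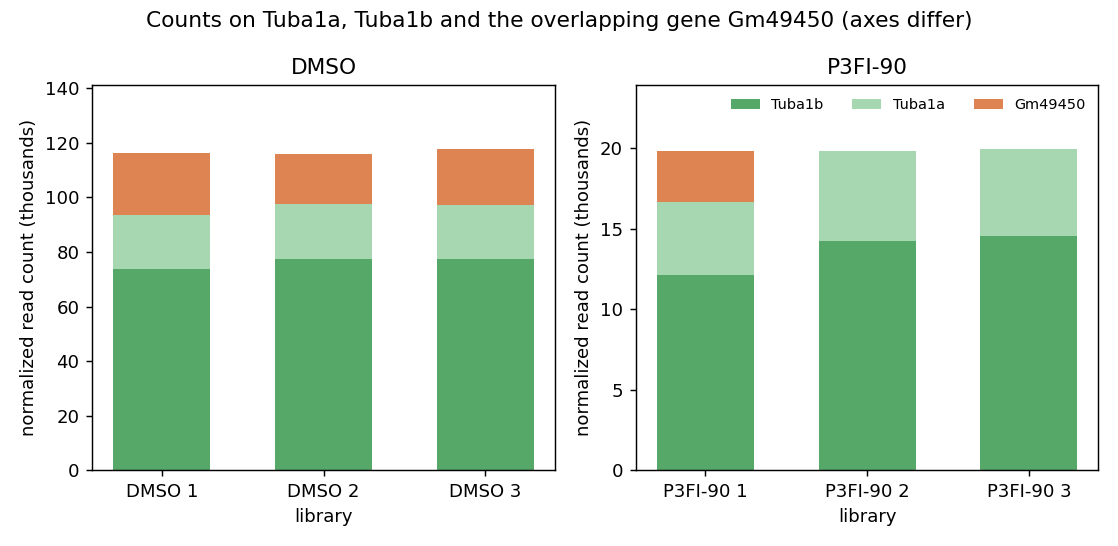
Normalized read counts (stacked) on Tuba1b, Tuba1a and the overlapping gene model Gm49450 in each DMSO library (left) and each P3FI-90 library (right), on axes of different range. Gm49450 holds counts in 1 of the 3 P3FI-90 libraries, and the stacked totals there lie between 19844 and 19959.

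Among the beta tubulins, Tubb5 (ENSMUSG00000001525), the ortholog of human TUBB and the main isotype of dividing cells, dominated. It had 118509, 113310 and 116094 normalized counts in DMSO and 21078, 22842 and 21616 after P3FI-90, a difference of −2.41 in log2 units (SE 0.032), or 5.31-fold lower. In DMSO it ranked 11 among all genes by normalized count. Tubb4b (ENSMUSG00000036752), also widely expressed, showed the largest log2 difference of the 10 members. It had 24639, 23681 and 25019 normalized counts in DMSO and 3492, 3451 and 3333 after P3FI-90, a difference of −2.84 in log2 units (SE 0.036), or 7.14-fold lower. For both genes the gap between the groups was many times the spread within them.

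Tubb6 (ENSMUSG00000001473), an isotype known for destabilizing microtubules, had 11155, 10518 and 10837 normalized counts in DMSO and 2776, 3320 and 3024 after P3FI-90, a difference of −1.83 in log2 units (SE 0.054). Tubb2a and its neighbor Tubb2b, both best known from brain, were lower in level. Tubb2a (ENSMUSG00000058672) had 3414, 3395 and 3299 normalized counts in DMSO and 1120, 1218 and 1247 after P3FI-90, a difference of −1.50 in log2 units (SE 0.054). Tubb2b (ENSMUSG00000045136) had 1407, 1277 and 1421 in DMSO and 405, 406 and 453 after P3FI-90, a difference of −1.70 in log2 units (SE 0.077). As 49.6% of the windows of Tubb2a and 39.3% of those of Tubb2b occur in other genes, mostly in each other, the 2 genes were also added. Their sum went from 4737 ± 76.3 to 1616 ± 87.5 normalized counts (SD, n = 3), 2.93-fold lower.

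Tubb3 (ENSMUSG00000062380), the neuronal isotype that is used as a marker of neurons and is found in some tumors, was nearly absent. It had 20, 24 and 12 counts in the DMSO libraries and 13, 16 and 14 after P3FI-90, and the groups overlapped. Its log2 fold change of −0.59 had an SE of 0.47. Without Tubb3, the log2 fold changes of the other 9 members ranged from −2.84 to −1.50. Tubb3 and Tubb6 share none of their windows with other genes and Tubb5 shares 0.115%. Tubb4b shares 50.9%, mostly with the pseudogene Tubb4b-ps1.

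Levels were next compared between genes as RPKM, the reads per kilobase of the principal transcript scaled to the effective library size, since longer transcripts give more reads. In the DMSO libraries Tubb5 and Tuba1b had the same level within their spread, at 1249 ± 28.0 and 1247 ± 34.8 (SD, n = 3). Then came Tubb4b at 436 ± 12.3, Tuba1c at 408 ± 6.31, Tuba1a at 313 ± 2.61 and Tubb6 at 176 ± 5.17. Tuba4a followed at 75.7 ± 2.64, Tubb2a at 59.7 ± 1.10, Tubb2b at 17.9 ± 1.04 and Tubb3 at 0.312 ± 0.127. Apart from Tubb5 and Tuba1b, the ranges of neighbors in this order did not overlap. These levels leave out Gm49450, whose exons overlap those of Tuba1a and Tuba1b. It had 20625 ± 2289 normalized counts in DMSO, against 19765 ± 165 for Tuba1a (SD, n = 3). The places of Tuba1a and Tuba1b thus depend on how reads were split, which the ranges do not measure. By normalized counts without length, Tuba1c stood above Tubb4b and the order was otherwise the same.

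After P3FI-90, the RPKM level of Tubb4b was 61.1 ± 1.48, below Tuba1a at 81.8 ± 9.0 and Tuba1c at 66.6 ± 1.13. Tubb2a at 21.2 ± 1.18 was above Tuba4a at 19.9 ± 0.947, with overlapping ranges. With Gm49450 left out, the 4 members with the highest levels in DMSO, Tubb5, Tuba1b, Tubb4b and Tuba1c, were also the 4 with the largest log2 differences. Spearman's rho between the level in DMSO and the log2 fold change was −0.87 over the 10 members and −0.82 over the 9 without Tubb3. This is a description across genes, which share the same libraries and in part the same sequence, and the level in DMSO enters both measures.

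The summed RPKM level of alpha over that of beta was 1.01, 1.09 and 1.06 in the DMSO libraries and 0.992, 1.05 and 1.11 after P3FI-90. The ratio averaged 1.05 in both groups, with SDs of 0.042 and 0.057. These sums leave out Gm49450. With it, the normalized counts of the alpha members were 5.75-fold lower after P3FI-90, against 5.21-fold for the beta members. The equal ratio therefore depends on leaving Gm49450 out. The mix of isotypes was also compared. Tubb4b made up 15.7% ± 0.26 of beta counts in DMSO and 11.5% ± 0.56 after P3FI-90, while Tubb6 went from 6.95% ± 0.056 to 10.1% ± 0.51 and Tubb2a from 2.16% ± 0.064 to 3.99% ± 0.18. Tubb5 held 74.3% ± 0.21 and 73.0% ± 0.14 of them. Among alpha counts, Tuba1b went from 57.8% ± 0.57 to 53.6% ± 1.4 and Tuba1c from 21.5% ± 0.22 to 18.3% ± 1.7. Tuba1a went from 15.0% ± 0.25 to 20.3% ± 0.79 and Tuba4a from 5.72% ± 0.27 to 7.82% ± 0.39. All 4 alpha shares depend on the counts that went to Gm49450. With Gm49450 in the alpha sum, Tuba1b was at 50% ± 1.3 in DMSO and 51.5% ± 5.0 after P3FI-90, a difference in the other direction and within the spread, and Tuba1c at 18.6% ± 0.34 and 17.5% ± 0.29. Tuba1a was then at 13.0% ± 0.18 and 19.5% ± 2.1, and Tuba4a at 4.94% ± 0.15 and 7.48% ± 0.34. Here Gm49450 was added only to the alpha sum, and none of its counts were given to Tuba1a or Tuba1b. The direction of the share differences of Tuba1a and Tuba1b depends on that assignment and is not settled.

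The other tubulin genes of the mouse were a list of 10, of which 6 passed the filter on low counts. Tuba3a, Tubal3 and Tubb1 had 0 counts in every library, which allows up to 3 counts over the libraries of a group, and Tuba3b had 2 counts in 1 library. Their coding starts are of the kind defined above for the members, as are those of Tuba8 and Tubb4a. Tuba8, an alpha isotype of testis and muscle, fell from 56.1 ± 7.90 to 24.0 ± 2.59 normalized counts (SD, n = 3), by 1.22 on the log2 scale with an SE of 0.31, and the edgeR fit gave it an adjusted p = 0.00256. Tubb4a, the beta isotype of oligodendrocytes and neurons, had 57.4 ± 15.7 and 65.4 ± 16.5, with a log2 fold change of 0.19 (SE 0.30) and overlapping groups. Tuba8 and Tubb4a were thus at counts well below those of the members other than Tubb3.

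Tubulins outside the heterodimer differed in direction. Tubg1, the gamma tubulin that nucleates microtubules at the centrosome, fell from 3370 ± 237 to 2312 ± 52.2 normalized counts, a difference of −0.54 in log2 units (SE 0.054). Tubd1, a delta tubulin of centrioles, fell from 475 ± 35 to 236 ± 28.4, a difference of −1.01 in log2 units (SE 0.12). Tube1, the epsilon tubulin, rose from 459 ± 31.9 to 717 ± 73.9, a difference of 0.64 in log2 units (SE 0.096). Tubg2 had 270 ± 44.6 and 310 ± 35.1 normalized counts and was not called (adjusted p = 0.227 from the edgeR test), but was called higher under scaling by total counts and after correction for length and GC, with a log2 fold change of 0.41 in both. Over all 6 other tubulins tested, Tuba8 and Tubb4a included, 3 genes fell, 1 rose and 2 were not called. Their median log2 fold change was −0.17, where that of the whole set of tested genes was 0.013.

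**Figure D3:**
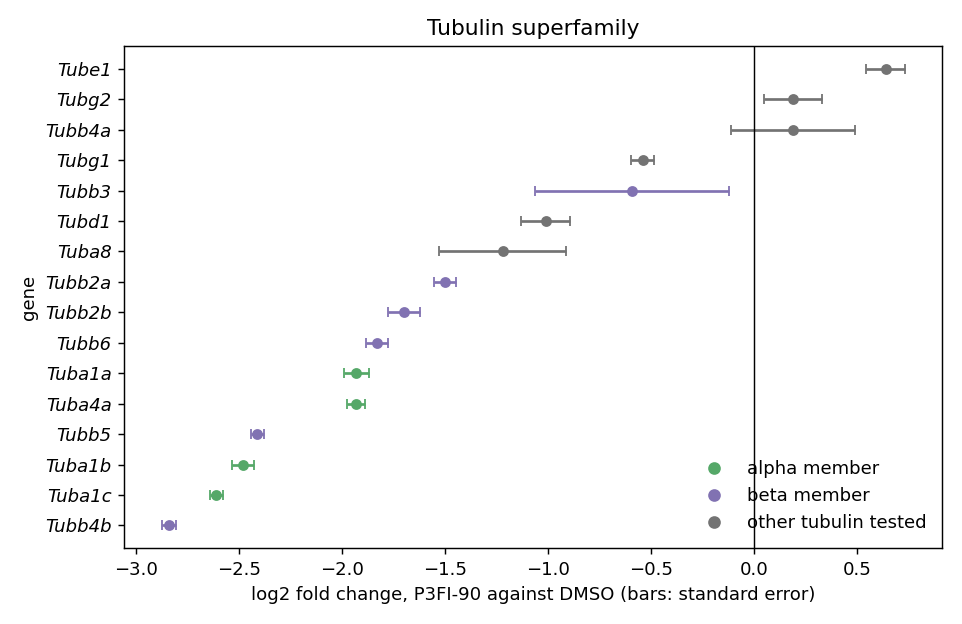
Log2 fold change of P3FI-90 against DMSO, with its standard error, for the 10 members and the 6 other tubulin genes tested, ordered by value. The 9 members other than Tubb3 lie between −2.84 and −1.50, and the 6 other tubulins between −1.22 and 0.64.

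The genes that surround tubulin in the cell were described from lists written from general knowledge. Their counts stand against 39.4% of all tested genes lower and 39.9% higher, and nothing particular to a list is read from them. Among 21 genes of tubulin folding, all were tested. In the edgeR fit 17 fell and 2 rose past an adjusted p of 0.05, and the median log2 fold change was −0.56. The 3 largest falls were of subunits of the CCT chaperonin, the chamber in which tubulin and actin fold. Its other subunits fell less than Tbca, down to a log2 fold change of −0.21 (SE 0.028) for Cct7. Cct2 had 30689, 31100 and 30049 normalized counts in DMSO and 11434, 11628 and 11684 after P3FI-90, a difference of −1.40 in log2 units (SE 0.029). Cct5 and Cct6a fell by 1.17 (SE 0.032) and 1.12 (SE 0.028) on the log2 scale. Of the cofactors that assemble the dimer, Tbca, which holds beta tubulin, fell by 1.05 (SE 0.058) and Tbcd by 0.50 (SE 0.061) on the log2 scale. The genes that rose were Tbcel and Pfdn4, named after their values were seen, with log2 fold changes of 0.72 (SE 0.15) and 0.17 (SE 0.065). The call of Pfdn4 was lost in 4 of the 6 fits that left out 1 library, those without DMSO replicate 2 or 3 or P3FI-90 replicate 1 or 2 (adjusted p up to 0.168 from the edgeR test).

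The factors of tubulin mRNA autoregulation included genes that fell and genes that rose. Ttc5, which encodes the reader of the nascent chain, fell from 1665 ± 84.2 to 1167 ± 27.9 normalized counts (SD, n = 3), a difference of −0.51 in log2 units (SE 0.057). Scaper, which encodes the adaptor between TTC5 and the deadenylase, fell from 568 ± 29.9 to 336 ± 24.4, a difference of −0.75 in log2 units (SE 0.099). Cnot11, the subunit that binds SCAPER, fell by 0.25 (SE 0.063) on the log2 scale, a call that was lost under scaling by total counts (log2 fold change −0.03). Cnot3, another subunit of the deadenylase, rose by 0.69 (SE 0.056). Of the 12 genes listed, 7 fell, 2 rose and 3 were not called, with a median log2 fold change of −0.20. Under scaling by total counts, 4 fell and 5 rose.

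Genes of microtubule nucleation were a list of 9, of which 4 rose and 1 fell, with a median log2 fold change of 0.13. Tubgcp3 and Tubgcp2, subunits of the gamma tubulin complex, rose by 0.52 (SE 0.037) and 0.44 (SE 0.046) on the log2 scale, and Mzt1, a small subunit of the same complex, by 0.40 (SE 0.052). The gene that fell, Tubgcp4, was named after its value was seen and had a log2 fold change of −0.37 (SE 0.046). After correction for a trend of the log2 fold change with length and GC, 4 genes of this list fell.

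Of 22 genes of tubulin modification, 18 were tested, 5 rose and 7 fell, with a median log2 fold change of −0.17. Ttll3, a tubulin glycylase, rose from 70.3 ± 25.3 to 386 ± 25.6 normalized counts, a difference of 2.45 in log2 units (SE 0.21). Ttll7, a polyglutamylase that prefers beta tubulin, rose by 0.81 (SE 0.068), and Ttl, which adds back the terminal tyrosine of alpha tubulin, by 0.25 (SE 0.063). The deacetylase gene Hdac6 fell by 0.65 (SE 0.057) on the log2 scale. The acetyltransferase gene Atat1 fell by 0.36 (SE 0.094), but was not called under scaling by total counts or after correction for length and GC (adjusted p = 0.175 and 0.0505 from the edgeR test).

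Of 34 genes of microtubule-associated proteins, 29 were tested, 14 rose and 8 fell, with a median log2 fold change of 0.16. Stmn1, which encodes stathmin, a protein that sequesters tubulin dimers, fell from 5633 ± 122 to 2168 ± 139 normalized counts, a difference of −1.38 in log2 units (SE 0.048). Clip2, a linker at growing ends, fell by 1.47 (SE 0.067) and Map4, the main structural microtubule-associated protein outside neurons, by 0.41 (SE 0.041) on the log2 scale. Mapre3, an end-binding protein, rose from 523 ± 17.7 to 1182 ± 53.5, a difference of 1.18 in log2 units (SE 0.071).

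Of 32 genes of transport motors, 30 were tested, 15 rose and 9 fell, with a median log2 fold change of 0.07. Kif5b, the kinesin-1 heavy chain, rose from 9281 ± 235 to 16004 ± 362 normalized counts, a difference of 0.79 in log2 units (SE 0.033), and Kif13b, a kinesin of vesicle transport, by 1.05 (SE 0.16). Dync1h1, the dynein heavy chain, rose by 0.53 (SE 0.042), but after correction for transcript length and GC content its log2 fold change was 0.01. The small subunits Dynll1 of dynein and Dctn6 of dynactin fell by 1.08 (SE 0.045) and 0.87 (SE 0.053) on the log2 scale.

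**Figure D4:**
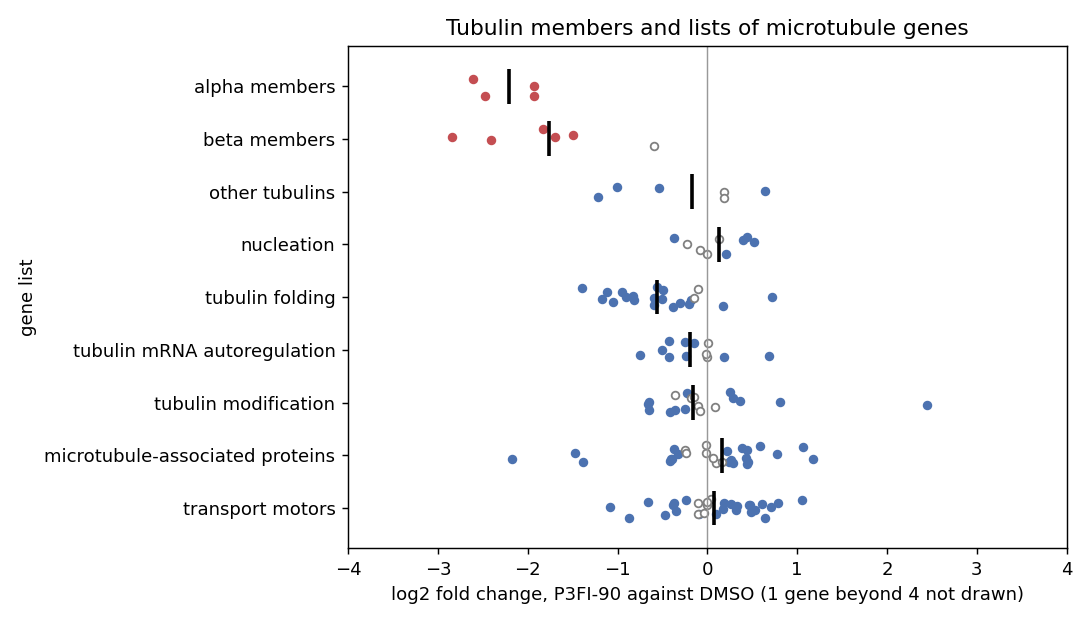
Log2 fold change of P3FI-90 against DMSO for each tested gene of the alpha and beta members (red) and of 7 lists of microtubule genes (blue), with list medians as vertical bars and genes that were not called as open circles. The medians are −2.21 and −1.77 for the alpha and beta members and lie between −0.56 and 0.16 for the lists, and Stmn4, at 0 counts in DMSO and at least 25.3-fold higher after P3FI-90, is beyond the axis.

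The genes with profiles most like the tubulin sums over the 6 libraries were sought by the Euclidean distance between log2 CPM values centred on the DMSO mean, over the 10767 tested genes that reached 100 normalized counts in either group. For the alpha sum these were Plk1, Prss22 and Nrarp, at distances of 0.12, 0.13 and 0.16. This alpha sum leaves out Gm49450, and its log2 ratio was −2.37 without that row and −2.52 with it. The genes nearest to the sum with Gm49450 were not sought, so these 3 depend on leaving it out. For the beta sum they were Sapcd2, Nrarp and Plk1, at distances of 0.10, 0.11 and 0.13. Plk1, a mitotic kinase, had 7078 ± 79.1 normalized counts in DMSO and 1320 ± 68.7 after P3FI-90 (SD, n = 3). The 4 genes had log2 fold changes between −2.42 and −2.33. With 2 groups, this distance mainly measures how close the log2 fold changes are, the contrast on which the members were picked. A small distance therefore does not show that a gene varies together with tubulin beyond this contrast.

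The members do not sit in one place in the genome. In GENCODE M21, Tuba1a, Tuba1b and Tuba1c lie in one cluster and Tubb2a next to Tubb2b, and the others lie apart. The nearest protein-coding genes of the table on either side of the members were 15 genes other than members, of which 10 were tested. Of these, 6 fell, 1 rose and 3 were not called in the edgeR fit, where 39.4% of all tested genes were lower and 39.9% higher. Gm49450, which overlaps members and was not called by DESeq2, is among the 6. Around Tubb5, Flot1 fell from 2714 ± 116 to 897 ± 59.3 normalized counts, a difference of −1.60 in log2 units (SE 0.060), and Mdc1 rose from 3887 ± 48.8 to 9265 ± 76.2, a difference of 1.25 in log2 units (SE 0.033). Stk16, which shares exon sequence with Tuba4a on the genome, had 2036 ± 82.4 and 1932 ± 96.4 normalized counts and was not called (adjusted p = 0.216 from the edgeR test), but was higher under scaling by total counts, at 0.14 in log2 units. These neighbors were chosen by position, after the values of the members were known.

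Promoters are shown for 3 of the members with the highest levels, since the members were lower together. They are the 250 bases before the transcription start in RefSeq (GRCm38.p6), in which 8 of the 10 members have an entry, and CCAAT boxes on either strand are in capitals. The build differs from GRCm39, the build named in the submitters' processing notes.
Tubb4b, chr2:25224703-25224952, minus strand: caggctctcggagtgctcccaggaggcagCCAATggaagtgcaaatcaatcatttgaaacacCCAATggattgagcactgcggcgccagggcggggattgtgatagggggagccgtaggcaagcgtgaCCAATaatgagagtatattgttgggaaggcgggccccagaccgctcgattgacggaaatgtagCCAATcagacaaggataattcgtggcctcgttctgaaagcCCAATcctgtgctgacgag
Tubb5, chr17:35838302-35838551, minus strand: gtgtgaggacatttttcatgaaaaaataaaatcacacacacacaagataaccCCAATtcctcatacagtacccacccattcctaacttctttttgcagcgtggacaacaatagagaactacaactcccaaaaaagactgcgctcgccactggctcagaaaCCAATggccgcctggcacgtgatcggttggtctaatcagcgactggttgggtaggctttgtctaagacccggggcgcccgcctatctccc
Tuba1b, chr15:98934391-98934640, minus strand: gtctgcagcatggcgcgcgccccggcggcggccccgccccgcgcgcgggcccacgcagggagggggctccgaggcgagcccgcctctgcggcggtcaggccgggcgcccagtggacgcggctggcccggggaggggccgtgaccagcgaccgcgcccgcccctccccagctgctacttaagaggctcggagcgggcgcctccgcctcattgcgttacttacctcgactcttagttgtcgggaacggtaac
The Tubb4b promoter held 5 CCAAT boxes, that of Tubb5 held 2, and that of Tuba1b held none. Over both strands, CCAAT occurred in 5 of the 8 member promoters and in 33.8% of all 32851 promoters of this length, the GC box GGGCGG in 6 and 32.7%, the E-box CACGTG in 1 and 6.02%, and TATAAA in 1 and 12.4%. No searched motif was present in all 8 promoters. A match of letters is a description and says nothing about binding.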

How the data were processed

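The authors deposited whole-number read counts per gene for 6 libraries, without normalization. RNA was made into libraries with an Illumina mRNA kit and sequenced on an Illumina NovaSeq. The submitters' processing notes name CASAVA, HISAT2, StringTie and GRCm39, with no roles. The counting tool, annotation and strandedness are not given in the sources used here, and reads shared by paralogs may have been split or lost. The 285 rows of unnamed assembled transcripts, 0.483% to 0.556% of a library, were left out. Counts on named genes of 31327094 to 37395732 per library set the precision.

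Counts were filtered with filterByExpr, normalized by TMM and tested with edgeR 4.0.16 (quasi-likelihood, two-sided, Benjamini-Hochberg over 12288 genes) in R 4.3.3, without covariates. The common biological coefficient of variation was 0.0648. The paper tested with limma, which was run as an alternative (limma 3.58.1), as was DESeq2 1.42.0. On counts simulated for this comparison, of which 12192 genes passed the filter, the edgeR test found 195 of 200 changed genes, and 7.14% of its calls were false. The simulation used the same dispersion for every gene and changed only these 200, where 79.3% of tested genes were called in the data. It therefore does not give the error rate of the calls in the data. Transcript lengths, coding starts and shared windows came from GENCODE M21 (GRCm38), which holds 21995 of the 22105 gene identifiers. Positions in GENCODE M21 served only to find neighboring and overlapping genes, which were matched to the counts by identifier. Gene p-values set the difference between the groups against the spread between these libraries, which may be technical. An exact permutation test over 3 against 3 libraries cannot go below 0.1.

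The members and lists were chosen with earlier results of these data known. Besides the members, the genes named are, per list, the 3 largest called changes among genes that reached 100 normalized counts in either group and whose groups did not overlap, 13 genes chosen by role (Ttc5, Scaper, Cnot11, Tubg1, Tbca, Tbcd, Ttl, Atat1, Hdac6, Map4, Stmn1, Kif5b, Dync1h1), and the 3 nearest profiles to each sum. Other genes are named for their position or after their values were seen. The alternatives were other scalings and filters, other tools, a replicate block, each library left out, and log2 fold changes corrected for length and GC (natural splines, 4 degrees of freedom). The alternatives that kept the unnamed rows or added Gm49450 were chosen after seeing the data. The value of 1 marker gene is not reported here.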

Additional observations from a re-analysis of the deposited data

How the results depend on the processing

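The 9 members other than Tubb3 were lower under all 17 alternatives to the edgeR fit, with log2 fold changes from −2.87 to −1.28, and Tubb3 was lower without a call in all 17 (−0.86 to −0.19). The median over the members, −1.93, was −1.72 under scaling by total counts and −1.83 after correction for length and GC, and ranged from −1.98 to −1.87 with each library left out. The log2 ratio of the alpha sum, −2.37, was −2.16 under total counts and −2.52 with Gm49450 added, and that of the beta sum, −2.38, was −2.17 under total counts. Total counts raise all values by construction, as the median of all genes shows. The counts of all called genes stayed within 1.5 times in every alternative.

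In the lists, small counts moved. The other tubulins had 2 genes higher instead of 1 under total counts and with the length and GC trend removed. Nucleation had 2 genes lower instead of 1 under upper quartile scaling, limma-voom and the replicate block, 4 with the length and GC trend removed, and 1 to 2 with each library left out. Folding had 1 gene higher instead of 2 under upper quartile scaling, and 1 to 2 with each library left out. Autoregulation had 5 higher and 4 lower under total counts, and modification had 3 lower under total counts and 4 with the length and GC trend removed, instead of 7. Where no construction shows it, the cause was not tested. With the replicate number as a block, 4802 genes were higher and 4722 lower and no other count of a list moved by over 1.5 times. Equally numbered libraries deviated from their group means with correlations of −0.0214, 0.015 and 0.00491 over all tested genes. No pairing was seen in these values, but the labels do not say whether the numbers pair libraries. At the low counts of Tubb3, depth limits what difference could be seen.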

Other observations

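Genes other than tubulins with a coding start of the kind shown for the members, that is, ATG followed by CGN, AGA or AGG and by GAA or GAG, were counted after the values of the members had been seen. There were 23 such genes, of which 16 were tested. Their median log2 fold change was 0.38, against 0.01 over the 12164 tested genes with a coding start. Of the 16, 2 (12.5%) had a log2 fold change under −1, compared with 10.8% of all. One of these was Gm49450, which overlaps Tuba1a and Tuba1b, and it was also the only gene outside the tubulins in which the fourth codon also encoded the residue that alpha or beta tubulin has there. No test was made on these genes as a group.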
